A study of Mus musculus with 12 samples.

Results

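The core pluripotency factors described here are 6 genes, Pou5f1, Sox2, Nanog, Sall4, Lin28a and Utf1, chosen by their symbols from the 22911 genes listed in each of the 2 deposited tables. RNA-Seq was performed on mouse epiblast-like cells (EpiLCs), obtained from embryonic stem cells (ESCs) by 48 h of culture with FGF2 and Activin A. There were 3 libraries for each of 4 genotypes: in females, controls (Kdm5c fl/fl) and mutants (Kdm5c Δ/Δ), and in males, controls (Kdm5c flY) and mutants (Kdm5c ΔY). Kdm5c, formerly Smcx, is an X-linked gene for a histone demethylase that acts on methylated lysine 4 of histone H3. The Δ allele lacks exons of the demethylase domain, and the controls carried the floxed, undeleted allele, although the labels call them wild type for Smcx. All samples were labelled C57BL/6J, and the labels give 3 ESC lines for each genotype, described as independent, without naming the line of each library. The comparison asks how much RNA of these factors was present in mutant and control cells of each sex.

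OCT4, the product of Pou5f1, and SOX2 bind DNA side by side at many enhancers of pluripotent cells, including those of their own genes and of Nanog. NANOG and SALL4 occupy many of the same enhancers, UTF1 is a chromatin-bound protein of undifferentiated cells, and LIN28A is an RNA-binding protein that blocks the maturation of let-7 microRNAs. During the passage from naive ESCs to EpiLCs, which stand for the early post-implantation epiblast, cells keep OCT4 and SOX2 and lower the naive factors that surround them.

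All 6 genes were placed on mm9, the build of the deposited tables, by symbol in GENCODE M1. Pou5f1 lies at chr17:35642982-35647721 on the + strand, Sox2 at chr3:34548927-34551383 on the + strand, and Nanog at chr6:122657507-122664651 on the + strand. Sall4 lies at chr2:168573832-168593443 on the − strand, Lin28a at chr4:133559245-133574756 on the − strand, and Utf1 at chr7:147129688-147131011 on the + strand. Sox2 is a gene of 1 exon that sits inside Sox2ot, a long non-coding RNA gene of the same strand, and shares 0 bp of exons with it. Sall4 shares 526 bp of exons with Gm14261 and Lin28a shares 103 bp with Gm13061, both on the opposite strand. Whether the counting used strand is not given in the sources used here, so reads on those stretches could be of either gene. A read of 50 bp is unique in mm9 from 100% of the start positions on Sox2 and Utf1 exons, 99.9% on Sall4, 88.7% on Lin28a, 82.2% on Pou5f1 and 79.4% on Nanog. Reads from the remaining positions match other places in the genome as well, and the authors kept uniquely mapped reads, so the counts of Nanog and Pou5f1 cover only part of their transcripts. The shares count exact matches of reads that lie within a continuous stretch of exon. They leave out reads across splice junctions and the 1 mismatch that the authors allowed.

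The 250 bases before the annotated start are shown for Sox2, Nanog and Utf1, the 3 genes whose response to the mutation differed between the sexes. They are read 5′ to 3′ on the strand of the gene from mm9, with matches to 5 short motifs in capitals. The motifs, searched on both strands, were the octamer ATGCAAAT, the SOX core CATTGT, a composite of a SOX site and an octamer (TTGT, any base, ATGC, any base and AA in a row), the GC box GGGCGG and the CCAAT box CCAAT.
Sox2 (chr3:34548677-34548926, + strand): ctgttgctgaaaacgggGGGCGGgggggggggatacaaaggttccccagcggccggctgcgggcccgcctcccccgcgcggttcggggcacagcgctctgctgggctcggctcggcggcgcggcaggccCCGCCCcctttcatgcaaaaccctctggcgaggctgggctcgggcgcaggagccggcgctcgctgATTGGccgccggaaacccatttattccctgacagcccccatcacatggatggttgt
Nanog (chr6:122657257-122657506, + strand): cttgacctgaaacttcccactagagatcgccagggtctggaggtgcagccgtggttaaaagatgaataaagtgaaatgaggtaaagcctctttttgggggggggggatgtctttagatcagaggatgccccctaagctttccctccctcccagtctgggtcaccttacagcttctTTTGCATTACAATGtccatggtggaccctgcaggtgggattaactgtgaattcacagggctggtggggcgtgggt
Utf1 (chr7:147129438-147129687, + strand): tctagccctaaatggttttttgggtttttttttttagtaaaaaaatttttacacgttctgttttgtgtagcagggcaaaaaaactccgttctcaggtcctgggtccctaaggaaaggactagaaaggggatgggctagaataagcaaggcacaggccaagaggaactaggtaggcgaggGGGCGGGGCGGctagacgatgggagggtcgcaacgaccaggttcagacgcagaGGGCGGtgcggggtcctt
The capitals in the Nanog window hold the composite of SOX site and octamer on the − strand, from 75 to 64 bases before the start, and a SOX core that overlaps it, from 67 to 62 bases before. The composite was found in 12 of 19369 windows of the same length before annotated genes (0.062%), and the SOX core in 8.96%. The Sox2 window holds a GC box on each strand and a CCAAT box, which occur in 42% and 35.7% of the windows, and the Utf1 window holds 3 GC boxes, of which 2 overlap by a base. The Sox2 window is 70.8% G and C with 25 CpG, against medians of 55.2% and 9 over all windows, whereas Nanog has 3 CpG and Utf1 has 11. No octamer, which occurs in 1.63% of the windows, lies in the windows of the 6 genes. A match to such letters is a description of the sequence and not a measured binding site.

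The tables give the mean normalized count of each genotype, that is, reads divided by the size factor of their library and averaged over 3 libraries. The reads of single libraries were worked out from these means, with 5516216 to 11092731 reads recovered per library. The letters A, B and C name the libraries within a genotype in order of falling size factor. They cannot be tied to particular ESC lines. Library B of the male controls and library A of the male mutants stood apart from their groups, with median distances of 0.22 and 0.25 on the log2 scale over 9701 genes against 0.08 to 0.16 in the other 10. The spread between pairs of libraries was 2.04 to 4.77 times what counting alone gives for every pair without those libraries, and 18.3 to 32.2 times for pairs with them. With pairs as close as the former, the SDs and p-values are taken to measure only the spread between these libraries, which may be technical. Libraries A and C of the male controls had reads on 20773 and 20368 genes, against 17163 to 17731 in the others. The median gene had a log2 change of −0.12 in males and −0.00 in females, which is the level against which the changes below can be read. Kdm5c itself had 2359.7 ± 60.7 normalized counts (SD, n = 3) in the female controls and 1453 ± 49.7 in the female mutants. In males it had 2226 ± 133 in the controls and 1938 ± 39.7 in the mutants. These counts are over the whole gene and not the deleted exons alone. Its log2 change passed in females (−0.70, limma adjusted p = 6.52e-09) and did not pass in males (−0.20, adjusted p = 0.252). The male change minus the female change was 0.50 (adjusted p = 0.00283).

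In females, 3 of the 6 factors rose in the mutant (Sox2, Sall4 and Utf1), 2 fell (Nanog and Pou5f1) and Lin28a did not pass the test. Over all genes tested, 55% passed at an adjusted p under 0.05 from limma, 27.8% higher and 27.2% lower in the mutant, so a call alone is common in females and the sizes carry the description. In males, 1 factor rose (Sall4) and 1 fell (Utf1), where 8.8% of all genes passed, 4.78% higher and 4.02% lower. Without male control library B and male mutant library A, all 6 passed in males, Sox2 and Sall4 higher and the other 4 lower. In that fit 45.2% of all genes passed, 18.5% higher and 26.7% lower. It keeps libraries A and C of the male controls, which had reads on more genes than any other library. The 2 libraries left in each group had spreads of 2.46 and 2.73 times what counting alone gives. Its p-values may therefore measure technical spread only, and its calls are not taken as firmer. The change differed between the sexes for Sox2, Nanog and Utf1, where 25.6% of all genes passed the test of that difference. In bulk RNA, fewer cells that express a gene and less RNA per cell cannot be told apart.

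Pou5f1, which encodes the POU factor OCT4, varied least. Its normalized counts were 3606, 3686 and 3513 in libraries A, B and C of the female controls and 3131, 3107 and 3163 in the female mutants. In males they were 3270, 4402 and 3330 in the male controls and 3016, 2800 and 2750 in the male mutants. In both sexes every mutant library was below every control library, and library B of the male controls was the highest of the 12. The log2 change was −0.20 (standard error 0.049, limma adjusted p = 0.00225) in females and −0.35 (standard error 0.14, adjusted p = 0.144) in males. The male value was −0.21 (adjusted p = 0.117) without library B of the male controls and −0.25 (adjusted p = 0.00653) without the 2 libraries that stand apart, and the difference between the sexes did not pass the test (−0.15, adjusted p = 0.479).

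Sox2, the HMG-box partner of OCT4, showed the widest range. Its counts were 357, 363 and 331 in the female controls, and 1670, 1962 and 1828 in the female mutants. In males they were 1397, 2197 and 1364 in the male controls and 2291, 1986 and 1944 in the male mutants. The 3 female control libraries were thus far below all the other 9, while the female mutants lay within the range of the males' libraries. In females, Sox2 rose 5.19-fold (log2 change 2.37, standard error 0.068, limma adjusted p = 2.58e-14). In males the groups overlapped through library B of the male controls, and the change was 0.36 (95% confidence interval −0.05 to 0.77, adjusted p = 0.245). It passed without that library (0.58, adjusted p = 0.0193) and without both libraries that stand apart (0.51, adjusted p = 0.000778). The change in males minus that in females was −2.01 (standard error 0.21, adjusted p = 1.90e-05). Female controls were 4.71-fold below male controls (adjusted p = 4.43e-07), where 24.9% of all genes passed, and the mutants of the sexes did not pass (−0.19, adjusted p = 0.393), where 30.5% passed.

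Sox2ot, the transcript in whose gene Sox2 lies, was at a far lower level and was added after its values were seen. Its mean normalized counts were 32.8 ± 10.1 (SD, n = 3) in the female controls and 207 ± 71.5 in the female mutants, and 61.7 ± 7.40 in the male controls and 55.0 ± 37.2 in the male mutants. It rose in females (log2 change 2.60, adjusted p = 6.67e-08 from limma) and did not pass in males (−0.38, adjusted p = 0.600).

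Nanog, which encodes a homeodomain factor, fell in females. Its counts were 2892, 2806 and 2742 in the female controls and 1502, 1465 and 1547 in the female mutants. In males they were 2599, 2432 and 2574 in the male controls and 3254, 2297 and 2152 in the male mutants. The female mutants were the lowest 3 of the 12 libraries, and in the male mutants library A was above all controls while B and C were below them. The female level was 1.87-fold lower in the mutant (log2 change −0.90, standard error 0.052, limma adjusted p = 1.99e-10). The male change was −0.01 (95% confidence interval −0.36 to 0.35, adjusted p = 0.985), and −0.22 (adjusted p = 0.0185) without the 2 libraries that stand apart. The difference between the sexes was 0.90 (standard error 0.17, adjusted p = 0.00177), and 0.68 (adjusted p = 1.19e-05) without those libraries. The control levels did not pass between the sexes (0.15, adjusted p = 0.373), and the female mutants were below the male mutants (−0.75, adjusted p = 0.000514).

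Sall4, a zinc finger factor that binds with OCT4 and NANOG and recruits the NuRD complex, was higher in the mutants of both sexes. Its counts were 1873, 1942 and 1743 in the female controls and 3256, 3052 and 3206 in the female mutants. In males they were 1605, 2511 and 1476 in the male controls and 3498, 2946 and 2829 in the male mutants. All mutant libraries of either sex were above all control libraries of either sex. The log2 change was 0.78 (standard error 0.056, limma adjusted p = 3.34e-09) in females and 0.76 (standard error 0.19, adjusted p = 0.0423) in males, with a difference of −0.01 (95% confidence interval −0.48 to 0.46, adjusted p = 0.974). The male call was close to the threshold. It was lost without library A or C of the male controls or library B or C of the male mutants, at changes of 0.62 to 0.82 and adjusted p of up to 0.172, and the change was 0.91 (adjusted p = 0.000223) without the 2 libraries that stand apart.

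Utf1 moved in opposite directions in the sexes. Its counts were 2466, 2544 and 2634 in the female controls and 3646, 3438 and 3294 in the female mutants. In males they were 3812, 3990 and 3468 in the male controls and 1787, 2228 and 2267 in the male mutants. The male mutants were the lowest 3 of the 12 libraries, and the male controls overlapped the female mutants. The log2 change was 0.44 (standard error 0.054, limma adjusted p = 2.50e-06) in females and −0.85 (standard error 0.13, adjusted p = 0.00584) in males. Their difference was −1.29 (standard error 0.14, adjusted p = 2.28e-05). The female controls were below the male controls (−0.56, adjusted p = 0.00117), whereas the female mutants were above the male mutants (0.73, adjusted p = 0.000139).

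Lin28a passed the test between mutants and controls in neither sex. Its counts were 4627, 4855 and 4354 in the female controls and 4584, 4590 and 4697 in the female mutants. In males they were 3139, 3684 and 3084 in the male controls, and 4840, 2408 and 2541 in the male mutants. Library A of the male mutants was in the range of the females, and libraries B and C were the lowest of the 12. The log2 change was 0.01 in females (95% confidence interval −0.11 to 0.12, adjusted p = 0.943 from limma) and −0.09 in males (95% confidence interval −0.63 to 0.45, adjusted p = 0.829). Without library A of the male mutants the male change was −0.41 (adjusted p = 0.0265) and its difference from the female change was −0.42 (adjusted p = 0.0115). Female mutants were above male mutants (0.58, adjusted p = 0.0350), a call that was lost with scaling to the total of reads (0.46, adjusted p = 0.0725) and without any 1 of 6 libraries (adjusted p 0.0514 to 0.160).

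**Figure D1:**
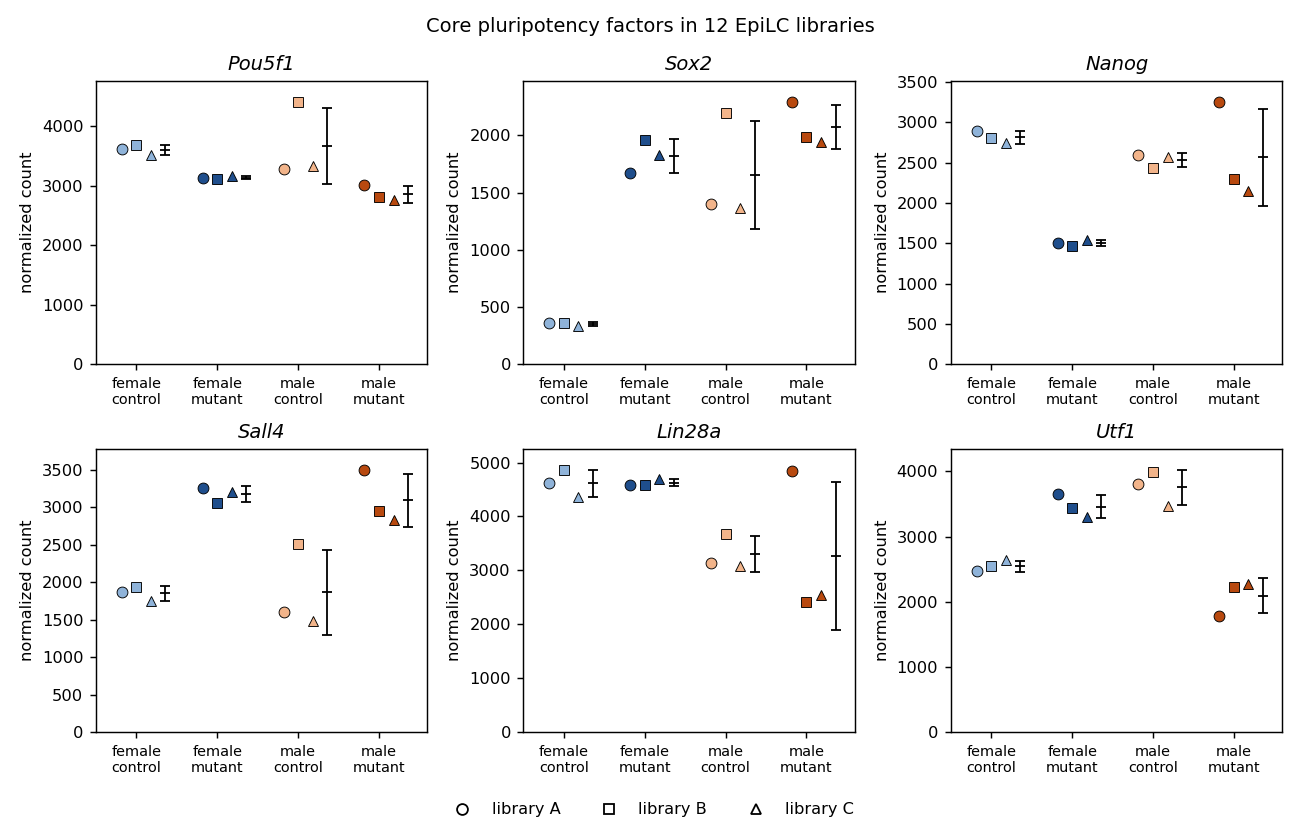
Normalized counts of the 6 factors (vertical axes, from 0) in the 3 libraries of each genotype, with the mean and SD as a bar beside the points. Sox2 lies between 331 and 363 in the female controls and at least 1364 in the other 9 libraries, Sall4 is higher in all mutant libraries than in all controls, and library B of the male controls and A of the male mutants lie far from their groups for several genes.

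With 3 libraries against 3, an exact permutation test of a single gene cannot go below p = 0.10, two-sided. In females 5 of the 6 genes reached that value, with groups that did not overlap, and Lin28a had an exact permutation p of 1.00. In males Pou5f1, Sall4 and Utf1 reached it, and the exact permutation p was 0.30 for Sox2 and 1.00 for Nanog and Lin28a. The share of all genes whose groups did not overlap was not computed, so these counts are not read as particular to the 6 genes. The coefficient of variation, from the SD of the 3 libraries, was 0.898 to 8.03% in the female genotypes over the 6 genes. In the male genotypes it was 3.56 to 41.9%. The plot of changes sets both sexes side by side.

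**Figure D2:**
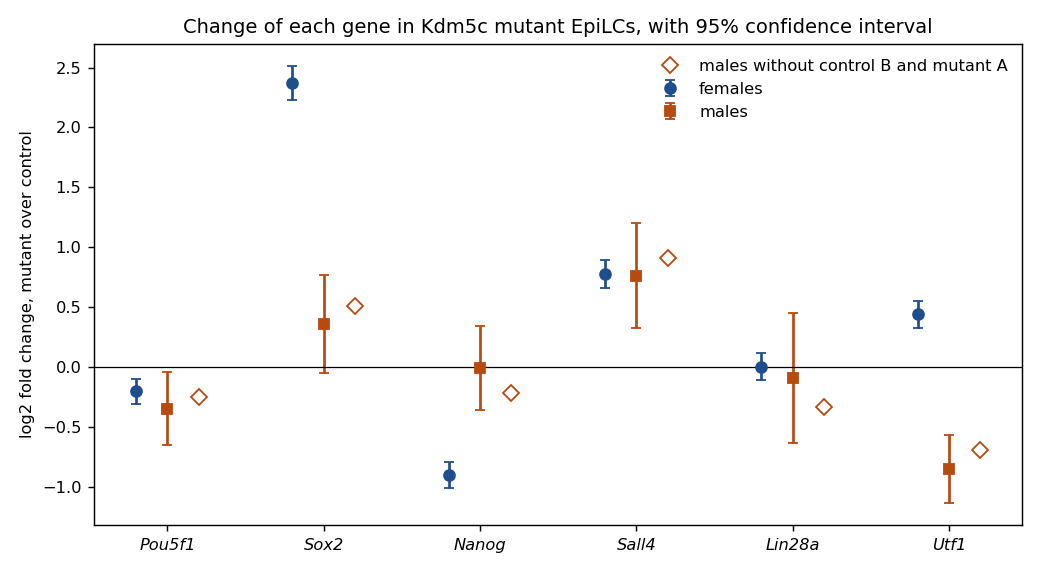
Log2 fold change of mutant over control (vertical axis) for each factor, with 95% confidence intervals from limma, in females (circles) and males (squares), and in males without control library B and mutant library A (open diamonds, no interval drawn). Sall4 has nearly the same value in both sexes (0.78 and 0.76), Sox2 and Nanog change more in females, and Utf1 lies above 0 in females and below 0 in males.

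Ordered by level, the genotypes stood differently for each gene. For Sox2 the order was the female controls, the male controls, the female mutants and the male mutants from low to high, and only the first was separate from its neighbour. For Nanog the order was the female mutants, the male controls, the male mutants and the female controls, and only the first was separate from its neighbour. For Sall4, the female controls overlapped the male controls and the male mutants overlapped the female mutants, with a gap between those pairs. For Utf1 the order was the male mutants, the female controls, the female mutants and the male controls, and the last pair overlapped. For Pou5f1 it was the male mutants, the female mutants, the female controls and the male controls, and the last pair overlapped. For Lin28a it was the male mutants, the male controls, the female controls and the female mutants, and the neighbours overlapped within the male pair and within the female pair.

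Between genes, levels can be compared only per length of exons. Per kb, Utf1 had the highest mean of the 6 in every genotype, 2076 ± 68.5 normalized counts per kb (SD, n = 3) in the female controls, 2819 ± 144 in the female mutants, 3062 ± 216 in the male controls and 1707 ± 217 in the male mutants. Pou5f1 came second in every genotype, with 1597 ± 38.3, 1389 ± 12.5, 1626 ± 282 and 1266 ± 62.6 per kb in the same order. Sox2 was the lowest of the 6 in the female controls, at 143 ± 6.93 per kb, which was place 4001 of 15953 genes with a length and reads. In the other genotypes Sox2 stood above Sall4, at 741 ± 59.5, 673 ± 192 and 844 ± 77.2 per kb, and Sall4 at 573 ± 19.2, 337 ± 102 and 558 ± 64.5 per kb. Nanog had 1255 ± 33.7, 671 ± 18.4, 1131 ± 40.3 and 1145 ± 267 per kb in the 4 genotypes. Lin28a had 1316 ± 71.7, 1319 ± 18.1, 942 ± 94.6 and 931 ± 390 per kb. These values per kb are lowered for Nanog, Pou5f1 and Lin28a by the positions where reads are not unique.

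The 6 genes together took 0.184 to 0.235% of the recovered reads of a library. The ratio of their reads within a library does not depend on the size factors, and shows unequal change between 2 genes. Pou5f1 itself was lower in the mutants, with log2 changes of −0.20 in females and −0.35 in males, of which the male change did not pass. A ratio to Pou5f1 can therefore rise where the other gene does not, as for Lin28a in females (log2 change 0.01). For every 100 reads on Pou5f1, Sox2 had 9.90, 9.86 and 9.43 reads in libraries A, B and C of the female controls and 53.3, 63.2 and 57.8 in the female mutants. In males Sox2 had 42.7, 49.9 and 41.0 reads in the male controls and 76.0, 70.9 and 70.7 in the male mutants, so that by this ratio the male groups did not overlap either. The log2 difference of the ratio was 2.57 in females and 0.71 in males (exact permutation test, two-sided, p = 0.10 in each, the smallest possible).

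For Sall4 the ratio was 51.9, 52.7 and 49.6 per 100 Pou5f1 reads in the female controls and 104, 98.2 and 101 in the female mutants. In males it was 49.1, 57.0 and 44.3 in the male controls and 116, 105 and 103 in the male mutants. Library B of the male controls, which had much more Sall4, Sox2 and Pou5f1 than its group, was still the highest of its group in these ratios but below every mutant library. The log2 difference was 0.98 in females and 1.11 in males (exact permutation test, two-sided, p = 0.10 in each).

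For Nanog the ratio fell from 76.1 to 80.2 in the female controls to 47.1 to 48.9 in the female mutants. In males it was 79.5, 55.2 and 77.3 in the male controls and 108, 82.0 and 78.3 in the male mutants, which overlapped (exact permutation test, two-sided, p = 0.20). For Utf1 it ran from 68.4 to 75.0 in the female controls, 104 to 116 in the female mutants, 90.6 to 117 in the male controls and 59.3 to 82.4 in the male mutants. The Utf1 ratio was thus higher in the female mutants and lower in the male mutants than in their controls, without overlap (exact permutation test, two-sided, p = 0.10 in each sex). For Lin28a it ran from 124 to 132 in the female controls and 146 to 148 in the female mutants, and from 83.7 to 96.0 in the male controls. In the male mutants the Lin28a ratio was 160 in library A and 86.0 and 92.4 in B and C.

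**Figure D3:**
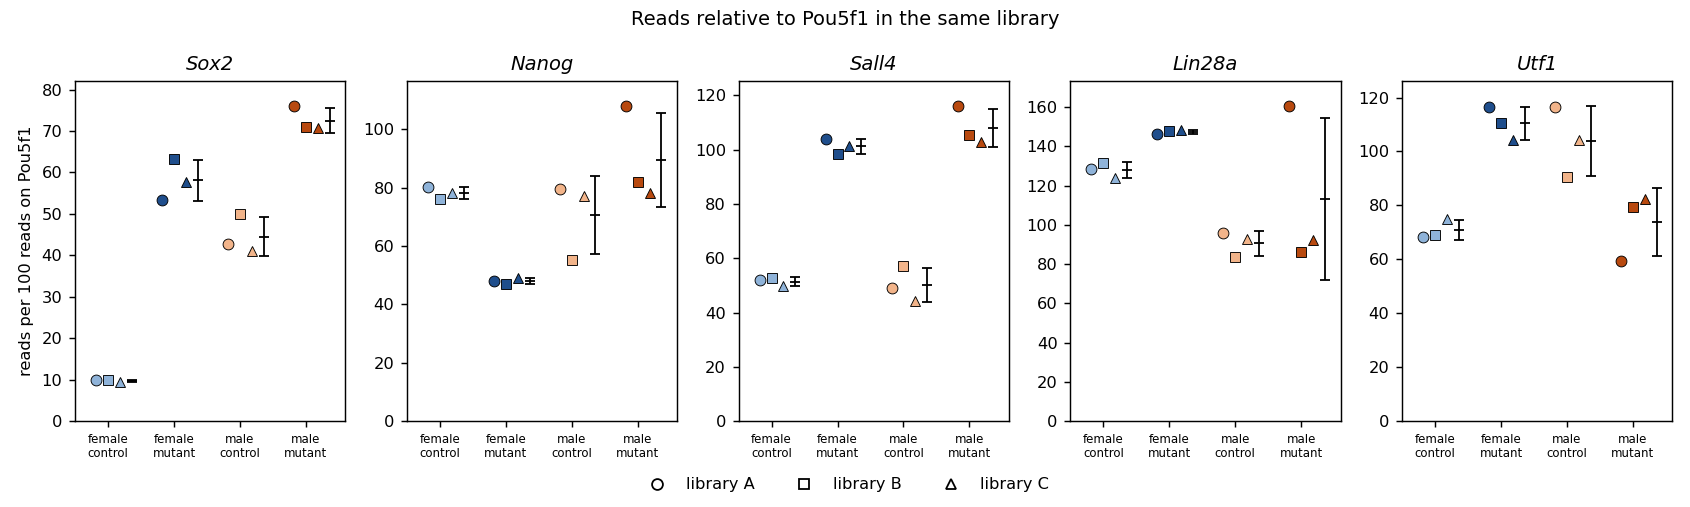
Reads on each of the other 5 factors per 100 reads on Pou5f1 in the same library (vertical axes, from 0), with the mean and SD as a bar. The Sox2 ratio is under 10 in the female controls and above 40 elsewhere, and the Sall4 ratio is near 50 in controls and near 100 in mutants of both sexes.

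The wider network was described with lists written from general knowledge, and is given by counts, medians and named genes. Over all genes, 27.8% rose and 27.2% fell in females, and 4.78% rose and 4.02% fell in males. Without the 2 male libraries that stand apart, 18.5% rose and 26.7% fell in males. Counts near these shares, here and in the lists below, are not read as a result about a list. Of 13 naive pluripotency factors, which mark the ground state that EpiLCs leave, 10 rose and 1 fell in females, with a median log2 change of 1.26, and 6 rose and 0 fell in males, with a median of 1.61. Without the 2 male libraries that stand apart, 12 rose and 1 fell in males. In females, Klf4 (2.99, adjusted p = 2.87e-12 from limma), Nr5a2 (3.44, adjusted p = 7.63e-12) and Tbx3 (2.57, adjusted p = 4.49e-13) rose most, and Fgf4 fell by 0.29 (adjusted p = 0.000346). In males, Klf2 (2.21, adjusted p = 0.00896), Esrrb (2.03, adjusted p = 0.0167) and Dppa3 (2.02, adjusted p = 0.00157) rose most. The mean counts of Esrrb, an orphan nuclear receptor that works with NANOG, were 401 ± 236 (SD, n = 3) in male controls and 1564 ± 587 in male mutants.

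Of 12 markers of the formative and primed epiblast, 4 rose and 7 fell in females and 0 rose and 3 fell in males, with medians of −0.32 and −0.44. Dnmt3a (1.60, adjusted p = 9.12e-14 from limma) and Dnmt3b (0.83, adjusted p = 4.93e-10), both de novo DNA methyltransferases, rose in females, as did Lef1 (0.49, adjusted p = 3.30e-05). In females Fgf8 fell by 3.20 (adjusted p = 1.53e-11), Sox3 fell by 1.14 (adjusted p = 4.30e-08) and Zic2 fell by 1.10 (adjusted p = 9.80e-11). In males Otx2, a homeobox factor that redirects OCT4 to new enhancers in EpiLCs, fell by 1.72 (adjusted p = 0.000610), Pou3f1 fell by 1.53 (adjusted p = 0.0403) and Fgf5 fell by 1.05 (adjusted p = 0.0369). Otx2 rose in females (0.36, adjusted p = 0.00140 from limma), and its male change minus its female change was −2.08 (adjusted p = 5.76e-06). All 12 markers had a mean of at least 10 normalized counts in every genotype. So did all 13 naive factors, so reaching this level does not tell EpiLCs from naive ESCs. Without the 2 male libraries that stand apart, 3 rose and 7 fell in males.

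Among 20 partners and regulators of the core network, 13 rose and 3 fell in females (median 0.28), and 1 rose and 3 fell in males (median −0.02). The largest rises in females were those of Foxd3 (2.87, adjusted p = 2.39e-11 from limma), Dppa2 (2.09, adjusted p = 2.43e-14) and Mycn (1.83, adjusted p = 2.11e-13). The falls in females were small, such as −0.24 for Tcf3 and −0.19 for Rest. Tcf7l1, a separate gene of the list that is not to be taken for Tcf3, rose by 0.18 in females (limma adjusted p = 0.0196). In males Mybl2, a cell cycle factor, rose by 0.69 (adjusted p = 0.0421), and Dppa4 (−0.55, adjusted p = 0.0344) and Zfp143 (−0.45, adjusted p = 0.0462) were among those that fell. The test of the difference between the sexes gave 0 genes higher in males and 7 lower, where 25.6% of all genes passed. The median difference was −0.26 against −0.11 over all genes. Without the 2 male libraries that stand apart, 7 rose and 6 fell in males.

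Among 12 textbook targets of OCT4 and SOX2, a list that includes Nanog and Utf1, 6 rose and 5 fell in females (median 0.23), and 2 rose and 2 fell in males (median −0.24). Fbxo15 and Spp1 rose in both sexes, Fbxo15 by 1.44 (adjusted p = 7.10e-11 from limma) in females and 0.70 (adjusted p = 0.0461) in males, and Spp1 by 1.41 (adjusted p = 5.08e-11) and 1.20 (adjusted p = 0.0316). Dppa4, a chromatin-bound partner of Dppa2, rose by 1.14 in females (adjusted p = 8.00e-11) and fell in males. In females Trh fell by 0.48 (adjusted p = 1.99e-05) and Tdgf1, a co-receptor for Nodal, fell by 0.39 (adjusted p = 7.67e-06). Without the 2 male libraries that stand apart, 2 rose and 7 fell in males.

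On the LIN28 and let-7 axis, 5 of 14 genes rose and 7 fell in females (median −0.15), and 0 rose and 2 fell in males (median −0.10). Hmga2, a chromatin protein whose transcript is a textbook let-7 target, fell in both sexes (−0.94, adjusted p = 3.35e-07 in females, and −1.02, adjusted p = 0.00242 in males, from limma). In females Myc (0.86, adjusted p = 1.16e-07) rose, as did Dgcr8 (0.74, adjusted p = 3.36e-08) and Drosha (0.60, adjusted p = 2.45e-08), the partners that cut primary microRNAs. Dis3l2, which degrades the let-7 precursors that LIN28 marks, fell by 0.72 (adjusted p = 9.47e-05) in females, and Igf2bp3 fell by 0.59 (adjusted p = 1.40e-07). Igf2bp2 fell by 0.70 in males (adjusted p = 0.0217). Without the 2 male libraries that stand apart, 3 rose and 7 fell in males.

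Of 17 chromatin partners of OCT4, NANOG and SALL4, 7 rose and 5 fell in females, with a median of 0.11. In males limma called 0 of the 17 (4 at an unadjusted p under 0.05), and without the 2 libraries that stand apart 8 rose and 4 fell. The members that rose most in females were Smarcd1 (0.78), Mta3 (0.58) and Arid1a (0.55), and those that fell most were Mta1 (−0.87), Hdac2 (−0.46) and Rbbp7 (−0.29). Mta1 and Mta3 are alternative subunits of NuRD. Of 11 paralogs of the 6 factors, 5 rose and 5 fell in females, and 0 rose and 1 fell in males, or 1 and 7 without the 2 libraries that stand apart. Sox1 and Sox3, the SOXB1 relatives of Sox2, fell in females (−3.08, adjusted p = 8.33e-10 from limma, and −1.14), while Sall1 rose by 1.21 (adjusted p = 5.11e-10).

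**Figure D4:**
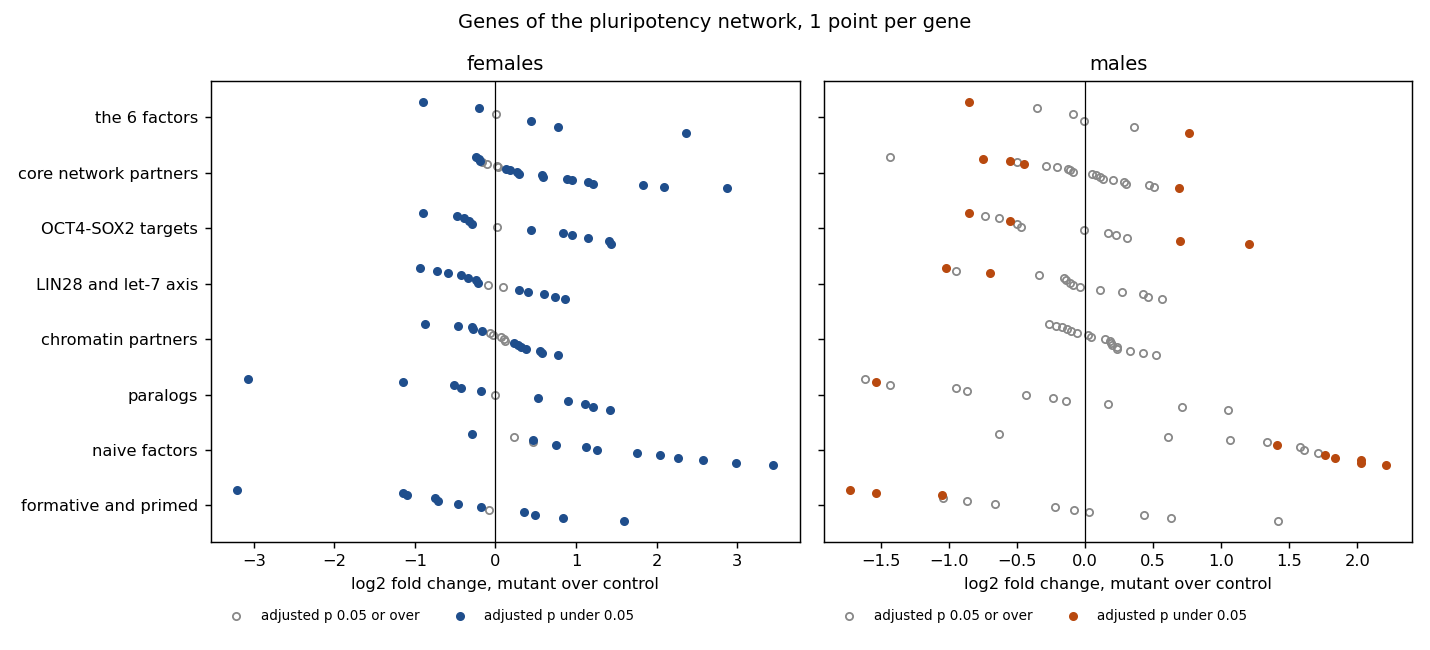
Log2 fold change of mutant over control (horizontal axis) for each gene of 8 lists in females (left) and males (right), where filled points have an adjusted p under 0.05 from limma. Lists share some genes. The naive factors lie mostly to the right of 0 in both sexes, with medians of 1.26 and 1.61, and the 6 factors are spread to either side.

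Markers of other cell types moved with the genotypes too. Over all genes, 55% passed in females, 8.8% in males, and 45.2% in males without the 2 libraries that stand apart. The summed normalized count of 12 markers of primitive and visceral endoderm was 579.7 to 650.4 in the female controls and 7350 to 7506 in the female mutants, and all 12 rose in females (median log2 change 3.39). The sum was 3410, 5775 and 3238 in libraries A, B and C of the male controls and 998 in A, 6735 in B and 6811 in C of the male mutants. Low and high endoderm sums went with low and high Sox2 in the female genotypes, and library A of the male mutants, the lowest of the males in this sum, was the highest of them in Nanog, Lin28a, Sall4 and Sox2. The part of these markers in the results was not tested. In males 0 of the 12 rose and 2 fell (median −0.09), or 7 and 4 without the 2 libraries that stand apart (median 0.84). The defining markers Gata6 (35.4 in the female controls and 619 in the female mutants) and Pdgfra (31.4 and 553) were not at 0 in either female genotype. In males the 2 that fell were Pdgfra, from 279 ± 26.0 (SD, n = 3) in the controls to 87.1 ± 43.9 in the mutants (−1.81, adjusted p = 0.0177 from limma), and Sox17, from 283 ± 14.3 to 81.9 ± 54.1 (−2.14, adjusted p = 0.0487). Gata6 had means of 340 and 152 in male controls and mutants and did not pass (adjusted p = 0.127). Cubn, the largest part of the mean male sums, had 1717 and 2501 (adjusted p = 0.951).

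The sum of 8 trophoblast markers was 373.5 to 426.5 in the female controls, 491 to 513 in the female mutants, 256.4 to 399 in the male controls and 1460 to 3212 in the male mutants. In females 2 of 8 rose and 2 fell, and in males 7 rose, with or without the 2 libraries that stand apart, led by Hand1 (4.68, adjusted p = 0.000210 from limma), Plac1 (3.33, adjusted p = 0.00369) and Krt7 (3.31, adjusted p = 0.000919). Cdx2 rose from a low mean of 1.85 in the male controls to 13.5 in the male mutants (2.41, adjusted p = 0.0209 from limma). Elf5 had means of 2.84 and 2.71 in male controls and mutants and did not pass (−0.09, adjusted p = 0.934). The sum of 8 fibroblast markers, genes that feeder cells would express, was 2262 to 2305 in the female controls, 751 to 814 in the female mutants, 562 to 826 in the male controls and 4176 to 4671 in the male mutants. In females 3 of the 8 fell and 0 rose, and in males 4 rose and 0 fell, or 4 and 1 without the 2 libraries that stand apart. Col1a1, a fibrillar collagen gene, was at −2.19 in females (adjusted p = 1.74e-14) and 3.36 in males (adjusted p = 5.98e-05). Together with Col1a2 (means of 760 and 337 in female controls and mutants, and 284 and 1642 in males) it made up most of the sum. The other 2 that rose in males were Col3a1 (1.70, adjusted p = 0.0274) and Postn (3.14, adjusted p = 0.00618), while Thy1 (−0.31), Lum (−0.74) and Dcn (−1.72), the last 2 at under 10 normalized counts in every genotype, did not pass in either sex. Utf1 was low in the genotypes with high fibroblast sums and high in those with low sums, and the part of these markers in its values was not tested. Markers of 2-cell-like cells (1 of 7 rose), mesendoderm (3 of 5 rose and 1 fell) and neural cells (1 of 6 rose and 2 fell) were also called in females, and in males limma called 0 genes of these 3 lists, with 1, 1 and 0 genes at an unadjusted p under 0.05 (without the 2 libraries that stand apart, 0 and 2, 4 and 1, and 0 and 4 rose and fell). The male mutant libraries were split in these sums. Libraries A, B and C had 605, 88.2 and 103 for 2-cell-like markers, 143, 384 and 367 for mesendoderm, and 2144, 921 and 912 for neural markers.

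**Figure D5:**
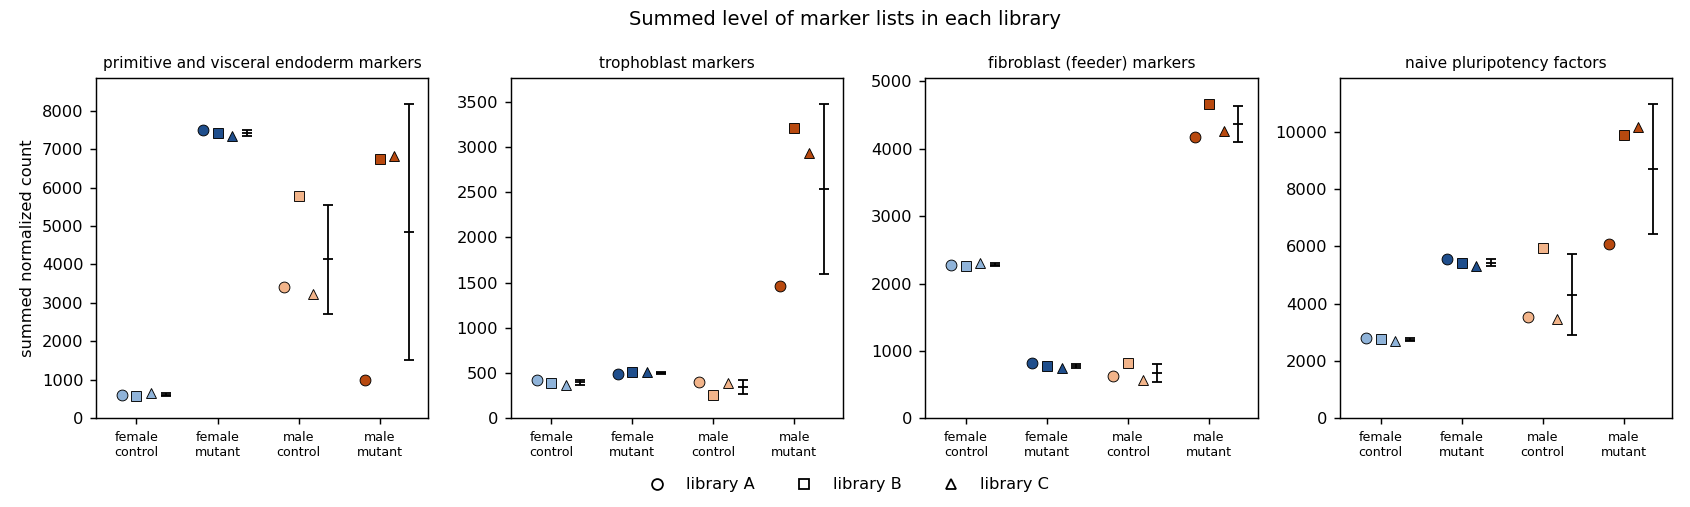
Summed normalized counts of 4 marker lists (vertical axes, from 0) in each library, with the mean and SD as a bar. The endoderm sum is 579.7 to 650.4 in the female controls and 7350 to 7506 in the female mutants, male mutant library A lies at 998 beside 6735 and 6811 in its group, and the fibroblast sum is high in the female controls and the male mutants.

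The genes most like each factor were found by the root mean square difference of centred log2 normalized counts over the 12 libraries, among 9700 other genes with a mean of at least 100. Gtpbp1 (0.07) and Glud1 (0.08) were nearest to Pou5f1, Map7d1 (0.10) and Setd7 (0.11) to Nanog, Pramef8 (0.12) to Sall4, and Cdkl3 and Hddc2 (0.16 each) to Utf1. Gm2381 (0.32) and Stag3 (0.36) were nearest to Sox2. The measure grows with a factor's own variation, whose root mean square was 1.05 for Sox2, 0.18 for Pou5f1, 0.38 for Nanog, 0.43 for Sall4 and 0.35 for Utf1. Among the 6 themselves, the highest place was that of Sall4, at 557 in the order of genes like Sox2. In the order of genes like Sall4, Sox2 was at place 8983, with a difference of 0.85. The smallest difference between 2 of the 6 was 0.32, for Pou5f1 and Utf1. Gm2381 had mean normalized counts of 124 ± 9.10 (SD, n = 3) and 585 ± 54.7 in female controls and mutants, and 375 ± 67.6 and 452 ± 18.3 in male controls and mutants.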

How the data were processed

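RNA-Seq of 12 EpiLC samples was analysed. The authors mapped 50 bp single-end reads to mm9 with TopHat2 2.1.0 and Bowtie2 2.2.6.0, allowing 1 mismatch. The signal columns that the authors deposited hold mean normalized counts per genotype (DESeq size factors), 1 table per sex. Deposited fold changes, p-values and adjusted p-values of the authors' own comparison were not used. The gene annotation is not given in the sources used here.

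Whole-number reads of each library were solved from the means at means no higher than 10000, each with 1 solution, which left 22808 genes in all 12 libraries. The solver and the fits were tested on simulated data. The tables' size factors were 0.988 to 0.999 of median-of-ratios factors over all libraries, so the sexes were compared directly. Limma 3.58.1 (R 4.3.3) with an intensity trend was fitted to log2(normalized count + 1) for genes with a mean above 0.5, within each sex, and over all 12 libraries for the interaction and the comparisons of sexes. P-values were Benjamini-Hochberg adjusted over all genes tested, with 0.05 as threshold. Named from each list were, in each sex, up to 3 genes that rose and 3 that fell most among calls with a mean of at least 10. For each called factor the 2 most similar genes were named. Some genes that meet these rules are not reported here.

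The factors and lists were chosen with earlier results of these data known, and comparisons of a sex share its libraries. The reads recovered were 5516216 to 11092731 per library. They come from genes that hold 86.0% (male controls) to 91.4% (male mutants) of the normalized reads, so they are below the full depth. The precision that they give covers counting error only. P-values measure the spread between these libraries. Alternatives were pseudocounts, filters, scalings, limma voom and leaving out libraries. Matplotlib 3.10.9, numpy 2.4.6, pandas 2.3.3 and scipy 1.17.1 in Python 3.11.15 were used.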

Additional observations from a re-analysis of the deposited data

Results flagged for a closer look

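The change with the mutation differed between the sexes for 3 of the 6 factors, by the limma interaction term over all 12 libraries. Over all genes, 25.6% passed the same test. The change in males minus that in females was −2.01 on the log2 scale for Sox2, 0.90 for Nanog and −1.29 for Utf1. The sizes without both male libraries that stand apart were −1.86, 0.68 and −1.13, each in the same direction and past the threshold. Calls over all genes went from 4877 to 9376 without those libraries, so passing there is common. Groups of 3 libraries were too small for a test of single outlying libraries.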

How the results depend on the processing

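The female changes of Pou5f1, Sox2, Nanog, Sall4 and Utf1 kept their direction and side of the threshold under all 13 alternatives, as did Utf1 in males under 14 and the interactions of Sox2, Nanog, Utf1 and Pou5f1 under 20. Lin28a in females and the Sall4 interaction passed under no alternative, and their sign changed (−0.06 to 0.04 and −0.16 to 0.22). Many male values moved with library B of Kdm5c flY and library A of Kdm5c ΔY. Without both, male calls went from 1766 to 9340, interaction calls from 4877 to 9376, calls between control sexes from 4743 to 10044 and between mutant sexes from 5805 to 9045. Leaving out each library in turn gave 352 to 4407 male calls and 3038 to 7425 between control sexes. Without both, the male changes of Pou5f1 (−0.25), Sox2 (0.51), Nanog (−0.22) and Lin28a (−0.33) passed, as did the Lin28a interaction (−0.34). Between control sexes Pou5f1 turned from −0.01 to 0.13 and Sall4 (0.27) and Lin28a (0.57) passed, and between mutant sexes Pou5f1 (0.18) passed. With each library left out in turn, male changes ran from 0.24 to 0.58 for Sox2, 0.62 to 1.00 for Sall4 and −0.41 to 0.092 for Lin28a, the Lin28a interaction from −0.42 to 0.087, the difference between control sexes from −0.12 to 0.27 for Sall4 and 0.44 to 0.57 for Lin28a, and that between mutant sexes from 0.40 to 0.90 for Lin28a. A pseudocount of 0.1 left the male Sall4 change at 0.76 (limma adjusted p = 0.0505), and scaling to total reads took Lin28a between mutant sexes to 0.46 (adjusted p = 0.0725). The cause of these shifts was not tested. For the comparisons of sexes, a pseudocount of 10, the other minimum means and limma voom were chosen after seeing the data, as was leaving out both libraries for those comparisons and the interaction. No paired analysis was possible because the recovered libraries carry no replicate numbers. With 2 libraries a group, the choice of those left out narrows the spread.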
